A study of Mus musculus with 12 samples.

Results

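The enrichment of kidney RNA by an antibody against N6-methyladenosine (m6A) was described in mice labelled as a conditional knockout (cKO) of METTL3, by setting the antibody-bound RNA (IP) against the RNA left in the supernatant. The samples were 3 cKO IP and 3 cKO supernatant samples, 6 of the 12 samples measured; the others were the same fractions of 3 wild-type (WT) kidneys. The features were 29423 of the 60823 non-control probes on the array, chosen as those well above background in both colours on at least 2 of the 3 cKO arrays. That choice was made on detection in both colours, which for dim probes also limits how one-sided a ratio can be.

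All animals were male C57BL/6 mice aged 6 to 8 weeks. Every animal, WT or cKO, had received glyoxylate at 100 mg/kg in 200 µl by daily intraperitoneal injection for 7 days, which models calcium oxalate crystals in the kidney, and no saline kidney is among these samples. The labels name the genotypes only as WT and METTL3 knockout or cKO. They give neither the promoter that drove the deletion nor the cells that lost the gene, so whole kidneys can hold cells that still carry METTL3.

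m6A is the most common internal base modification of messenger RNA, and it is placed mainly near stop codons and in the last exon by a nuclear complex whose catalytic subunit is METTL3. Reader proteins bind the mark and change the splicing, export, translation or decay of the transcript, and demethylases can take it off. An antibody against m6A pulls down modified RNA, so a transcript with a larger modified share is recovered more in the IP than in the supernatant, together with some RNA bound for other reasons.

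On each array the IP of a kidney was labelled with Cy5 and its supernatant with Cy3. No dyes were swapped, so how a probe takes up the dyes and how the antibody recovers its transcript cannot be told apart. The antibody field of the labels calls the supernatant an input, whereas the extraction protocol describes it as the RNA recovered after the precipitation. Between 53.59% and 56.05% of non-control probes were well above background in the IP and between 49.85% and 56.8% in the supernatant of the cKO arrays. Only 45 of the probes could be paired with a gene symbol, and METTL3 and the kidney cell type markers are not among them, so the genotype and the tissue were not checked against their genes. Each ratio below is the log2 of IP over supernatant relative to the median of the chosen probes on its array, WT arrays included. A shift of the log2 ratio that was equal for all probes in the knockout would therefore not show in these ratios.

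In cKO kidneys the ratio of IP to supernatant differed widely between transcripts. Of the 29423 probes, 18522 (63.0%) differed from the array median in limma's moderated test over 3 arrays (Benjamini-Hochberg adjusted p under 0.05). Of these, 9223 (31.3% of the probes) lay above the median, towards the IP, and 9299 (31.6%) lay below it, towards the supernatant. The even split follows from the centring on the median. Probes called above had a median log2 ratio of 1.02, and those called below had -1.04. A difference of at least 2-fold was reached by 9621 of the called probes (32.7% of all tested), 4726 above and 4895 below the median.

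The interquartile range of the log2 ratio was 1.29, 1.41 and 1.43 on cKO arrays 1, 2 and 3, a mean of 1.38 ± 0.074 (SD, n = 3). With normexp background correction it was 0.647, and 0.635 with loess added. Normexp was run with 50 added to the signal of both colours, which by itself makes log2 ratios smaller in size, most for dim probes. Array 1 was the narrowest of the 3. Of 29283 probes with a ratio on every cKO array, 38.9% were above the median on all 3 arrays and 38.7% were below it on all 3, while 22.3% changed side. Across probes, which share their sequences and dyes on every array, the ratios of arrays 2 and 3 correlated at r = 0.938, those of arrays 1 and 3 at 0.904 and those of arrays 1 and 2 at 0.882. The median SD of a probe over the arrays was 0.267. The smallest ratio called was 0.387 in size, and the largest not called was 1.29.

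The detection rule removed dim probes. Those just inside it, with both colours well above background on exactly 2 cKO arrays, numbered 2893 and had median log2 ratios of 0.05, 0.20 and 0.11 on arrays 1, 2 and 3. The 2831 probes just outside it, with both colours on 1 array, had 0.10, 0.16 and 0.11. The rule also left out 1210 probes that were well above background in the IP on all 3 cKO arrays and in the supernatant on none, and 927 with the reverse pattern, so the most one-sided dim transcripts are not among the ratios described here.

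Signal strength was the first property by which the ratio was divided. The members were cut into 10 equal groups by the mean log2 processed signal of both colours, which depends on the amount of transcript and on how well a probe binds it. The middle of the ratios hardly moved along this scale. The median log2 ratio of the dimmest group was -0.06, -0.05 and -0.03 on arrays 1, 2 and 3, and that of the brightest group was 0.0041, 0.013 and -0.0047. The brightest thus lay higher by 0.050 ± 0.021 (SD, n = 3). The software's dye normalisation fits the dyes to each other along signal strength, so a trend shared by all probes would have been levelled before deposit. Without the dye normalisation alone the difference was 0.073, and with normexp background correction, which also leaves it out, it was 0.21.

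The spread changed more than the middle. The interquartile range was 0.90, 0.97 and 0.93 in the dimmest group and 1.39, 1.77 and 1.98 in the brightest. It was wider in the bright group on every array, by 0.779 ± 0.28 on average, and least so on array 1. The share of probes called was 39.8% in the dimmest group, 63.9% in group 5 of 10 and 76.5% in the brightest, against 63.0% overall. A mean difference of at least 2-fold, called or not, was held by 11.7% of the dimmest group, 43.6% of group 9 and 41.0% of the brightest. Over the same range the median SD between arrays fell from 0.401 to 0.215, while the ratios widened. The detection rule removes one-sided ratios mainly among dim probes, so part of the narrow dim end is fixed by it. The difference in spread was 0.578 when both colours were required on at least 1 array, 0.828 when required on all 3, and 1.43 with normexp.

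**Figure D1:**
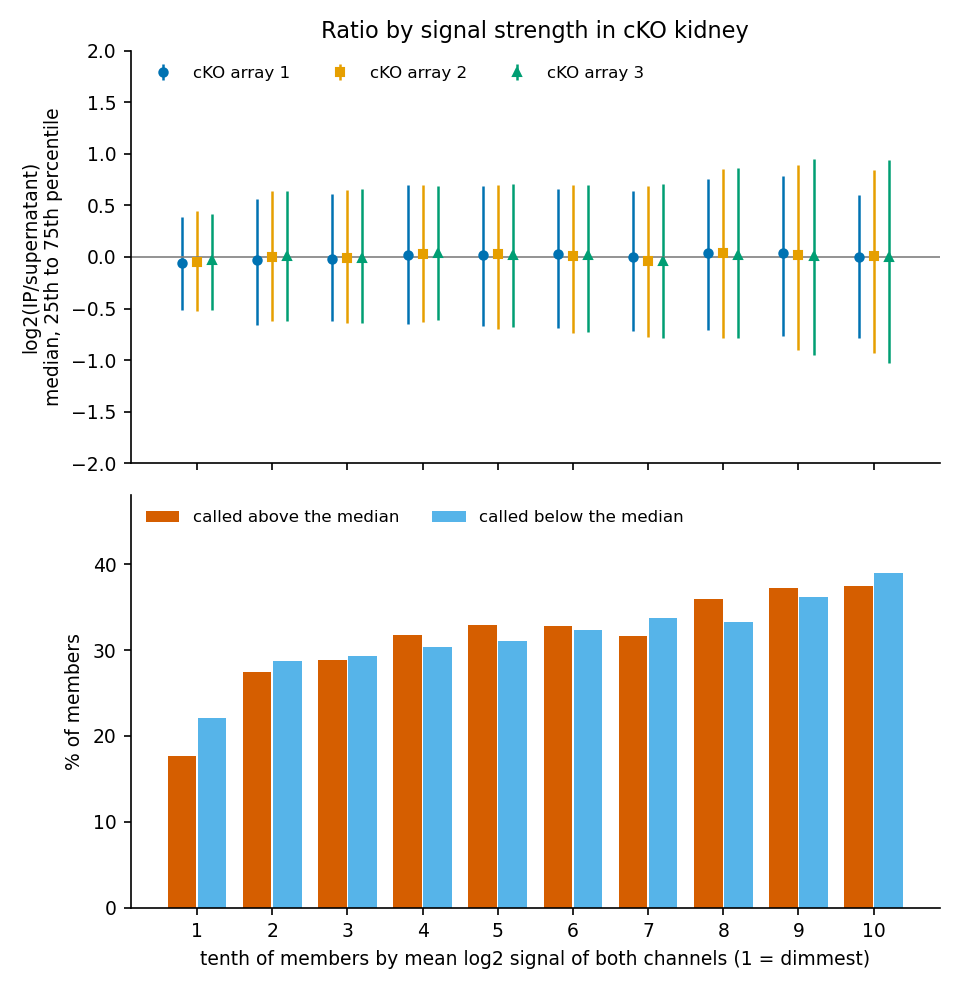
The upper panel plots the median log2 ratio of IP to supernatant, with bars that span the interquartile range, for each cKO array in 10 groups of signal strength from 1 (dimmest) to 10 (brightest). The lower panel plots the percent of members called above or below the array median (limma, adjusted p under 0.05), which rises from 17.7% and 22.1% in the dimmest group to 37.5% and 39.0% in the brightest, while the medians stay near 0.

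The probes also fall into classes by the prefix of their names, whose meaning the files do not state. The largest, ASMM10EP3A, held 24608 members of 48057 probes, ASMM10EP3B held 3152 of 8497 and ASMM10SM1 held 1588 of 4087. The 50 A_51_P probes, which carry the gene names, gave 36 members. The remaining members were 25 of 102 probes with a spike-in name (ASSPINKEIN) and 14 of 15 probes with the prefix CUST, while 0 of 15 probes named as negatives passed the rule.

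ASMM10SM1 was the class whose ratios leaned to the supernatant. Its median log2 ratio was -0.43, -0.59 and -0.51 on cKO arrays 1, 2 and 3, below that of ASMM10EP3A by 0.449, 0.624 and 0.541. The mean difference was -0.538 ± 0.088 (SD, n = 3), with all 3 arrays on the same side. An exact sign-flip test over 3 arrays cannot give a two-sided p under 0.25, so none is reported for differences between classes. In this class 11.6% of members were called above the median and 52.6% below it, against 31.3% and 31.6% of all members.

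The lean of ASMM10SM1 appeared at every signal strength. When members were divided into 5 groups by signal, the mean of its array medians was -0.39 in the dimmest of them and -1.06 in the brightest, where ASMM10EP3A had -0.0077 and 0.03. Its lower tail was long, with a 10th percentile of -2.53 against -1.32 in ASMM10EP3A. Of the 294 members that make up the lowest 1% of ratios, from -7.00 to -3.14, 92 (31.3%) belonged to ASMM10SM1, a class that holds 5.4% of the members. The highest 1%, from 2.81 to 5.44, held 3 of its probes. With normexp the difference from ASMM10EP3A was -0.218. For WT kidneys the difference was -0.842, -0.923 and -0.938, so the 3 WT arrays all lay lower than the 3 cKO arrays. The members were chosen on the cKO arrays alone, which limits one-sided ratios of dim probes there but not in WT. The part of this choice in the difference between genotypes was not tested.

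ASMM10EP3B stood close to ASMM10EP3A, with median differences of 0.09, 0.04 and 0.0086 on the 3 arrays. The spread of these differences, 0.039, is about as large as their mean of 0.0445. The A_51_P probes lay higher than ASMM10EP3A by 0.460, 0.590 and 0.521, and 55.6% of them were called above the median and 11.1% below it. Probes with a spike-in name had class medians of 0.38, 0.24 and -0.0092 and an interquartile range of 2.00, with 10 called above and 8 below the median. The files do not say which of them carry m6A, so they served as a scale only in an alternative centring.

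**Figure D2:**
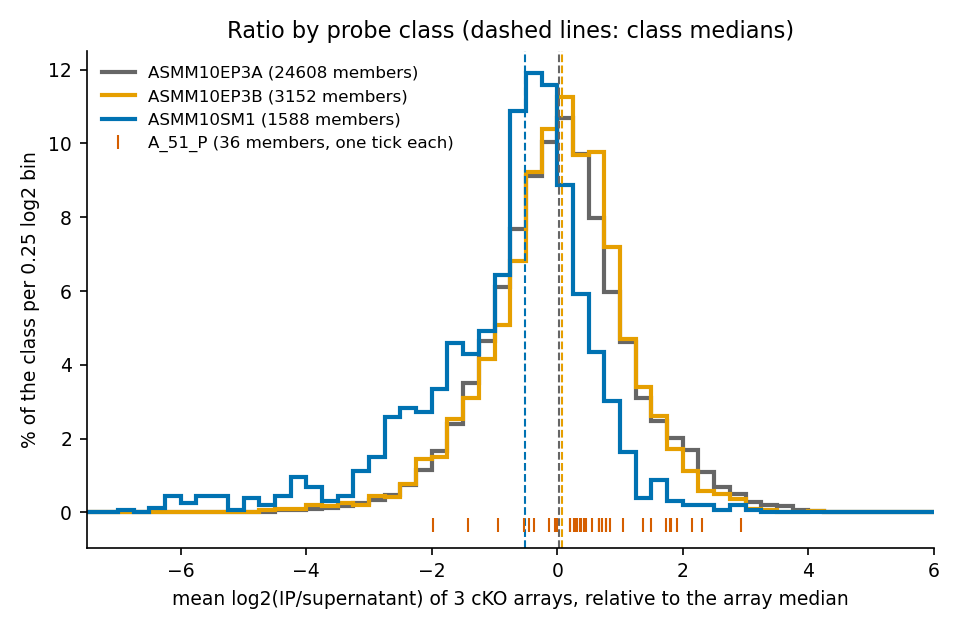
Histograms of the mean log2 ratio of IP to supernatant over 3 cKO arrays, in percent of each probe class per bin of 0.25, with dashed lines at the class medians and a tick for each of the 36 A_51_P members. ASMM10SM1 is shifted to lower ratios, with a class median near -0.51 and a tail that reaches -7.00, and the ticks of A_51_P lie mostly above 0.

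Among probes well above background in both colours on all 3 cKO arrays, the ends of the scale were held by probes with no gene name. The probe ASMM10EP3A117058160 had log2 ratios of 4.10, 4.69 and 4.36 on cKO arrays 1, 2 and 3. Its IP signals were 4220, 5825 and 6384 scanner units and its supernatant signals 246.2, 230.8 and 315.8, a mean ratio 20.9-fold above the median probe. With normexp its mean log2 ratio fell from 4.38 to 3.01. ASMM10EP3A124001113 followed at 4.75, 3.89 and 4.31. At the other end ASMM10SM1100066852 had -6.40, -6.44 and -6.41, with IP signals of 348.6 to 429.6 and supernatant signals of 29420 to 37250. ASMM10SM1100052062 had -6.05, -6.17 and -6.63. With normexp the means of these other probes were 3.22, -5.20 and -4.42. For each of these probes all cKO arrays lay on the same side, and their adjusted p in limma's test lay between 2.59e-06 and 7.37e-06. They were picked as the highest and lowest means among probes called in this same test, so a small adjusted p follows from the choice.

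The gene names come from the A_51_P probes, each printed in 10 spots. Of 50 such probes, 45 matched a symbol and 36 were members, 35 of them with a symbol. Of these 35 genes, 19 were called above the median, 4 below it and 12 were not called, with a median log2 ratio of 0.451 against 0.0046 over all members. The genes were above the median on all 3 arrays in 22 cases and below it on all 3 in 7, against 38.9% and 38.7% of all probes. The spots of a probe on an array differed by a median SD of 0.108, less than the median SD of 0.198 over the 3 arrays. Array 1 gave the lowest of the 3 ratios for 14 of the 19 genes called above. The gene groups used here are short lists, most of whose genes have no named probe on the array, so they describe single genes and not pathways. Their counts stand beside 31.3% of all members and 55.6% of the A_51_P members called above, and no list is set apart by them.

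**Figure D3:**
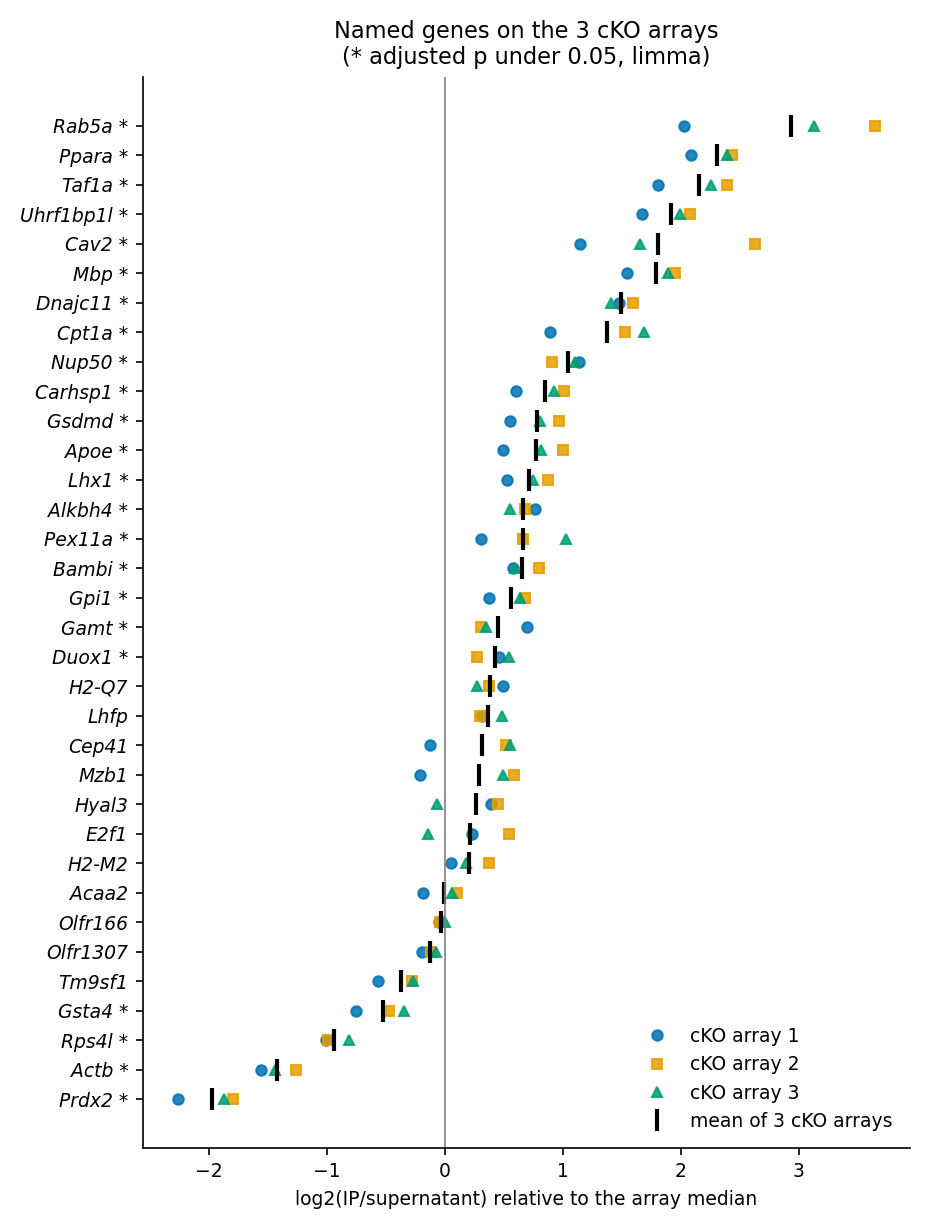
Log2 ratio of IP to supernatant relative to the array median for 34 of the 35 named genes, with a symbol for each of the 3 cKO arrays, a black bar for their mean and an asterisk for an adjusted p under 0.05 in limma's test. The 19 genes called above run from Duox1 to Rab5a, and the 4 called below, Gsta4, Rps4l, Actb and Prdx2, lie at the bottom with all 3 arrays under 0.

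Among the named members Rab5a, of the list for the endosome, caveolae and membrane traffic, had the highest mean ratio in the knockout. All 4 genes of this list with a named probe were members, 3 were called above the median and 1 was not called. Of all members 31.3% were called above, and of A_51_P members 55.6%. Rab5a, a small GTPase that directs vesicles to early endosomes, had IP signals of 4064, 7301 and 7363 and supernatant signals of 997, 595.2 and 856.1 on cKO arrays 1, 2 and 3. Its log2 ratios of 2.03, 3.65 and 3.13 gave a mean of 2.94 ± 0.83 (SD, n = 3; SE 0.288, limma adjusted p = 0.000109), 7.65-fold above the median probe. Every array was far above 0, and array 1 was the lowest.

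Uhrf1bp1l, whose protein moves lipids between membranes at endosomes, had log2 ratios of 1.67, 2.08 and 1.99, a mean of 1.92 ± 0.22 (adjusted p = 5.5e-05). Cav2, the gene of caveolin 2 in the coat of caveolae, had 1.14, 2.63 and 1.65, a mean of 1.81 ± 0.76 (adjusted p = 0.000821). The arrays disagreed most for Rab5a and Cav2 among the called genes, although none crossed the median. With normexp the mean of Cav2 was 0.80 and still passed. Tm9sf1, a transmembrane 9 superfamily gene, had -0.57, -0.28 and -0.27 and was not called (adjusted p = 0.0676), and it passed with normexp at -0.27 (adjusted p = 0.0345).

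Of the 4 peroxisome and fatty acid oxidation genes, 3 were called above the median, as were 55.6% of A_51_P members, and 1 was not called. Ppara encodes the nuclear receptor that switches on fatty acid oxidation. Its IP signals were 18120, 13170 and 22600 and its supernatant signals 4252, 2491 and 4394, which gave log2 ratios of 2.09, 2.43 and 2.39, a mean of 2.31 ± 0.19 (SE 0.156, adjusted p = 2.6e-05) or 4.94-fold. The 3 arrays lay close together. Cpt1a, which loads long-chain fatty acids for entry into mitochondria, had 0.89, 1.53 and 1.69, a mean of 1.37 ± 0.42 (adjusted p = 0.00062).

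Pex11a, which acts in the division of peroxisomes, had IP signals of 12890, 9252 and 11770 and supernatant signals of 10400, 5987 and 5877. Its log2 ratios of 0.31, 0.66 and 1.03 were spread over a wide range but all positive, with a mean of 0.67 ± 0.36 (adjusted p = 0.014). The call was lost without replicate 3 (0.48, adjusted p = 0.125). It was also lost in an unpaired limma fit of IP against supernatant signals (0.66, adjusted p = 0.0513). Acaa2, the thiolase of mitochondrial beta-oxidation, lay on the median at -0.19, 0.11 and 0.06 and was not called (adjusted p = 0.972). Apoe, the apolipoprotein that directs lipoprotein uptake, is the single lipoprotein gene with a probe and was called above at 0.50, 1.00 and 0.82 (mean 0.77 ± 0.26, adjusted p = 0.0047).

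Of the 5 nuclear and RNA regulators among the members, 4 were called above the median, against 55.6% of A_51_P members, and 1 was not called. Taf1a, a subunit of the factor that recruits RNA polymerase I to ribosomal DNA, had 1.81, 2.39 and 2.25, a mean of 2.15 ± 0.30 (adjusted p = 4.6e-05). Its supernatant signals were 214.5, 147 and 231, and with normexp the mean was 0.96. Nup50, a nucleoporin of the nuclear basket, had 0.90 on array 2 and 1.14 on array 1, with array 3 between them (mean 1.05 ± 0.13, adjusted p = 0.000677), so the arrays lay close together.

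Carhsp1, a cold-shock domain protein that binds RNA, had 0.61, 1.01 and 0.93 (mean 0.85 ± 0.21, adjusted p = 0.00254). Alkbh4, a dioxygenase of the AlkB family, had 0.76, 0.68 and 0.56 (mean 0.67 ± 0.10, adjusted p = 0.00584), and 0.35 with normexp. All 3 arrays were positive for both genes. E2f1, a transcription factor of cell cycle entry, was near the lower end of detection with IP signals of 95.93, 116.7 and 102.2, had 0.23, 0.54 and -0.15 and was not called (adjusted p = 0.335). Trp53rka, the remaining gene of the list with a probe, was well above background in the IP on 3 arrays and in the supernatant on 1, and so has no ratio here.

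Only 4 named genes were called below the median, as were 11.1% of A_51_P members and 31.6% of all members. Prdx2, a peroxiredoxin that reduces hydrogen peroxide, had IP signals of 6702, 7824 and 8097 against supernatant signals of 32270, 27810 and 30170. Its log2 ratios of -2.27, -1.80 and -1.87 gave a mean of -1.98 ± 0.25 (SE 0.164, adjusted p = 5.3e-05), or 3.94-fold below the median probe. The supernatant signal was higher than the IP signal on every array by a wide margin. The other antioxidant gene, the glutathione transferase gene Gsta4, had -0.75, -0.47 and -0.35 (mean -0.52 ± 0.21, adjusted p = 0.0218). The call for Gsta4 was lost in 4 of 12 other settings. Among them were the fits with any 1 of the cKO arrays left out, with means of -0.61 to -0.41 and adjusted p from 0.0546 to 0.0569.

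Rps4l, named for its likeness to a ribosomal protein gene and paired in the files with a non-coding RNA record, had -1.01, -0.99 and -0.82 (mean -0.94 ± 0.11, adjusted p = 0.00112). It may share signal with near-identical copies of its family on a hybridisation array. Of the housekeeping genes, Actb, the cytoplasmic actin of the cytoskeleton, was called below at -1.56, -1.26 and -1.44 (mean -1.42 ± 0.15, adjusted p = 0.000163), with IP signals of 2880, 3026 and 4258 and supernatant signals of 8512, 7427 and 11790. Gpi1, the isomerase of the second step of glycolysis, was called above at 0.37, 0.68 and 0.63 (mean 0.56 ± 0.16, adjusted p = 0.0144). Its call was lost without replicate 2 (adjusted p = 0.0785) or 3 (0.097).

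**Figure D4:**
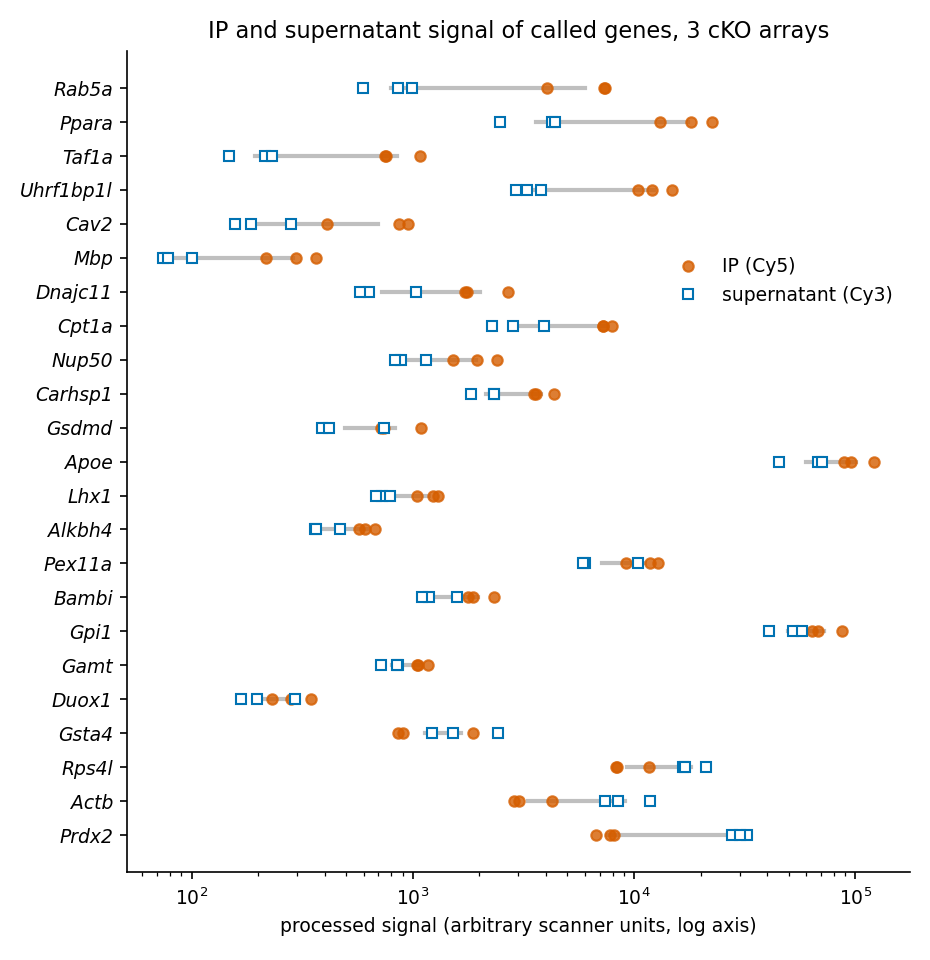
Processed signals of IP (filled circles) and supernatant (open squares) on the 3 cKO arrays for the 23 named genes called in limma's test, on a log axis of scanner units, with a grey line between the geometric means of both fractions. In 16 of the 19 genes called above, the lowest IP signal exceeded the highest supernatant signal, and in 3 of the 4 called below (Rps4l, Actb and Prdx2) the lowest supernatant signal exceeded the highest IP signal.

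Both genes of the mitochondrial list were called above, against 55.6% of A_51_P members. Dnajc11, which helps to shape the inner membrane, had 1.48, 1.60 and 1.41 (mean 1.50 ± 0.096, adjusted p = 0.000115), the smallest spread among the genes named so far. Gamt catalyses the last step of creatine synthesis and is not itself a mitochondrial enzyme. It had 0.69, 0.31 and 0.35 (mean 0.45 ± 0.21, adjusted p = 0.0388), and the call was lost in 6 of 12 other settings. Among them were the fits without any 1 of the cKO arrays, with means of 0.33 to 0.52 and adjusted p from 0.069 to 0.114.

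The remaining genes called above fall outside these lists. Mbp, which encodes myelin basic protein of nervous tissue, had 1.54, 1.95 and 1.89 (mean 1.80 ± 0.22, adjusted p = 7.2e-05). Its supernatant signals were only 74.31, 78.34 and 100.4, well above background on 2 arrays, and with normexp its mean was 0.43. Kcnn2, the other nervous tissue marker with a probe, was not a member. Gsdmd, the pore-forming effector of pyroptosis, had 0.55, 0.97 and 0.81 (mean 0.78 ± 0.21, adjusted p = 0.00379), and 0.43 with normexp.

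Lhx1, a homeobox gene of kidney development, had 0.53, 0.88 and 0.75 (mean 0.72 ± 0.18, adjusted p = 0.00501). Bambi, a pseudoreceptor that dampens TGF-beta signalling, had 0.58, 0.80 and 0.60 (mean 0.66 ± 0.12, adjusted p = 0.00643). Both were positive on every array. Duox1, a dual oxidase that makes hydrogen peroxide, had 0.46, 0.27 and 0.55 (mean 0.43 ± 0.14, adjusted p = 0.0396). Its call was lost in 10 of 12 other settings. Among them were normexp (0.16, adjusted p = 0.0954) and the fits without any 1 of the cKO arrays (adjusted p from 0.0666 to 0.239). A further A_51_P member, for the transcript AK004226 with no symbol here, had 1.68, 1.62 and 1.91 (mean 1.74 ± 0.15, adjusted p = 6.8e-05).

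Of the 12 named members that were not called, the 11 described here had mean log2 ratios from -0.37 to 0.38. None of the 3 immune genes was called, where 63.0% of all members were called in either direction, but each passed under some other setting. H2-Q7, a non-classical class I histocompatibility gene, had 0.49, 0.37 and 0.27 (mean 0.38 ± 0.11, adjusted p = 0.0575), positive on every array, and passed with normexp (0.58, adjusted p = 0.00143). H2-M2, of the same gene family, had 0.05, 0.38 and 0.18 (adjusted p = 0.283), and passed with normexp (0.28, adjusted p = 0.0192). Probes for class I genes can share signal with related genes. Mzb1, a chaperone of B cells and plasma cells and the single lymphocyte marker with a probe, had -0.21, 0.59 and 0.50 with IP signals of 116.2 to 196.3 (adjusted p = 0.226), and passed without replicate 1 (0.54, adjusted p = 0.0232).

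Neither olfactory receptor gene was called. Olfr166 had -0.05, -0.04 and 0.00018, and Olfr1307 had -0.20, -0.12 and -0.07, with signals of 157.2 to 192.1 scanner units over both fractions. Lhfp, Cep41 and Hyal3 had means of 0.36, 0.32 and 0.26. Lhfp passed with normexp (0.27, adjusted p = 0.0189) and Cep41 without replicate 1 (0.54, adjusted p = 0.0233). Of the 10 named genes that were not members, 4 were well above background in neither fraction on any cKO array (Gabrg1, Hspb7, Spats1 and Tyr), and 7 had no cKO array with a supernatant well above background.

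The ratios of the knockout were set beside those of the wild type over 22562 probes that met the detection rule in both genotypes. Each array, WT included, was centred on the median of the members chosen on the cKO arrays, not of the probes compared here. WT calls therefore need not split evenly around it. In WT 6372 of the 22562 probes were called above that median by the same test, and 5652 of them (88.7%) were called above in cKO. These make up 79.9% of the 7073 called above in cKO. Below the median, 7370 of 8709 WT calls (84.6%) were called in cKO, which is 86.3% of the 8536 cKO calls. Only 31 probes were called above in WT and below in cKO, and 23 the reverse. Across probes the means of both genotypes correlated at r = 0.947, where each pair of values shares its probe and its dyes.

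Both genotypes were centred on the members chosen on the cKO arrays. At the low end of the scale, cKO ratios were then nearer to the median than WT ratios. At the high end the arrays of both genotypes overlapped. In the 2257 probes with the highest WT means, the median log2 ratios of WT arrays 1, 2 and 3 were 1.80, 2.28 and 2.30, while the cKO arrays had 1.62, 1.90 and 1.94. The 2257 lowest gave -2.32, -2.51 and -2.78 for WT, whereas cKO had -1.90, -2.02 and -2.11. Choosing probes by WT favours extreme WT values, so both ends were also taken by the cKO means. The highest then had 1.74, 2.20 and 2.19 in WT against 1.72, 1.93 and 1.97 in cKO, and the lowest -2.30, -2.40 and -2.70 against -2.01, -2.07 and -2.13. The overlap at the high end and its absence at the low end held in both rankings with this centring. Centring on the compared probes instead lowered the cKO minus WT difference of each named gene, as from -0.034 to -0.122 for Gsta4. Such a shift narrows the gap at the low end and widens it at the high end. The ends of the scale were not recomputed with it.

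**Figure D5:**
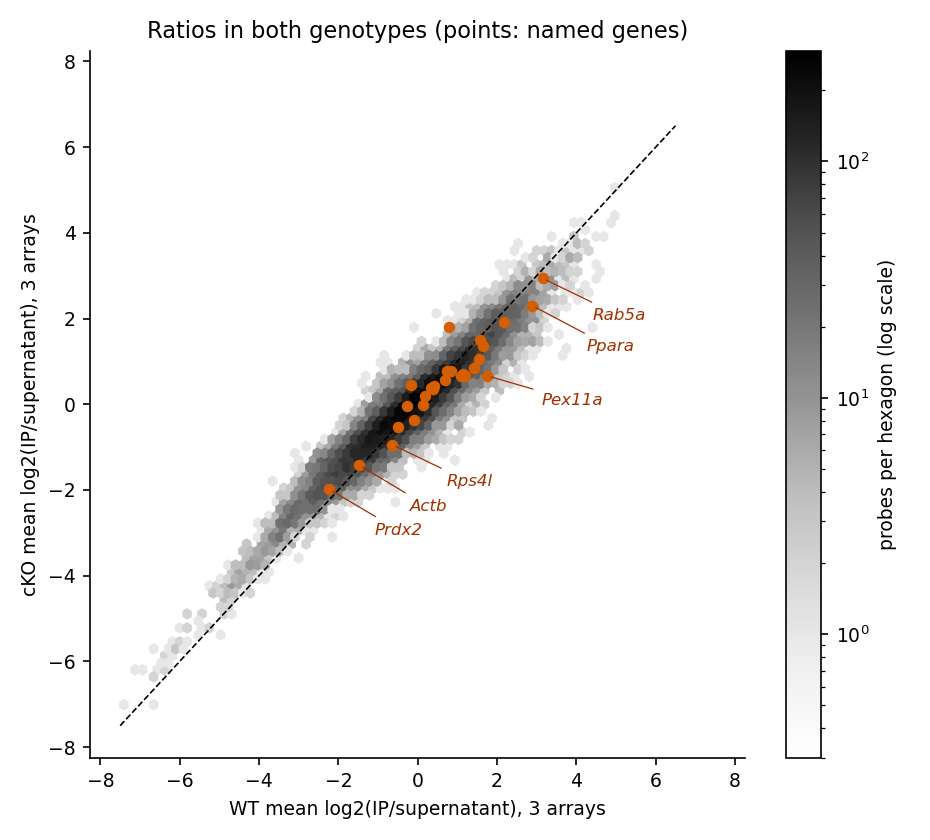
Mean log2 ratio of IP to supernatant over 3 cKO arrays against that over 3 WT arrays for 22562 probes, shaded by the number of probes per hexagon on a log scale, with named genes as points and a dashed line of equal ratios. The cloud follows the line (r = 0.947) but is flatter, above the line at low ratios and below it at high ratios, and Pex11a lies below it.

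Few single probes could be told apart between the genotypes. In limma's test of cKO minus WT, 18 of 22562 probes (0.0798%) passed an adjusted p under 0.05, all 18 with a lower ratio in cKO, and 4250 had an unadjusted p under 0.05. All 18 were ASMM10EP3A probes, a class that holds 83.6% of the members, with differences from -2.63 to -1.45. The largest difference in size was that of ASMM10EP3A100180827 (-2.63, SE 0.298, adjusted p = 0.0439). With WT and cKO arrays of the same replicate number as a block, 759 probes passed, 449 higher and 310 lower in cKO.

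The cKO arrays and WT array 2 were scanned together, and WT arrays 1 and 3 in another scan. With the scan as a block 0 probes passed in limma's test (3542 at an unadjusted p under 0.05), and 0 passed among the arrays of the shared scan alone (4546 unadjusted), where WT has 1 array. The count also fell to between 0 and 1 when any array of either genotype was left out. Detection in the supernatant, at 38.35%, 52.33% and 31.69% of probes for WT arrays 1 to 3, was for arrays 1 and 3 under the lowest cKO value of 49.85%, and its part in the genotype differences was not tested.

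Of the named genes, 28 could be compared, of which limma's test called 0, and 6 reached an unadjusted p under 0.05. Pex11a had the lowest unadjusted p. Its WT ratios were 1.68, 1.82 and 1.75 against 0.31, 0.66 and 1.03 in cKO, a difference of -1.08 (SE 0.235, adjusted p = 0.117), and it passed with the replicate block (adjusted p = 0.0447). The groups did not overlap. Of the others, Alkbh4 (-0.52), Carhsp1 (-0.58), Nup50 (-0.49) and Gamt (0.62) had adjusted p from 0.215 to 0.241.

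In 8 of the 28 genes all cKO arrays were lower than all WT arrays, as was so for 8.62% of all probes compared in this way, and in 3 genes they were all higher, against 17.3% of probes. Both shares depend on the centring, which used the members chosen on the cKO arrays. The 8 were Pex11a, Alkbh4, Carhsp1, Nup50, Ppara, Lhx1, Bambi and Rps4l. In 7 of these 8, all but Rps4l, the cKO ratio was still called above the median. Rab5a, with WT ratios of 2.09, 3.75 and 3.62, and Prdx2, with -2.24, -1.80 and -2.66, overlapped between genotypes and differed by -0.22 (SE 0.506) and 0.26 (SE 0.269).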

How the data were processed

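Values came from 6 Agilent arrays with 62976 spots each, 1 per kidney. Per the file headers and the submitters' processing notes, Agilent Feature Extraction 11.0.1.1 made the deposited intensity values, and the processed signals used here are background-subtracted and dye-normalised by the authors' run of it. The probe design names build mm9, so the RefSeq table of GRCm38.p6 gave names only. No spot was saturated. Controls and outlier-flagged spots were dropped, and log2 values were averaged over the spots of each probe. For probes with 10 spots, a share of at least 0.5 of them had to be well above background. The log2 ratio of Cy5 over Cy3 was centred on each array's median over the members, without loess. The members were those chosen on the cKO arrays, for WT arrays too.

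The ratio was tested against 0 over the 3 cKO arrays, and cKO against WT over 6 arrays, with limma 3.58.1 (lmFit, eBayes) in R 4.3.3, as a two-sided test at a Benjamini-Hochberg adjusted p under 0.05. Signal strength and probe classes were described without a test. Scripts were tested on simulated data. Normexp (offset 50) was run on median spot signals. The number of arrays limits the precision of every value. The labels call the animals biological replicates.

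IP and supernatant of a number come from the same animal, and their deviations from the group means correlated at 0.194, 0.304 and 0.425. WT and cKO share only numbers in the labels, but same-numbered arrays correlated at 0.417, 0.374 and 0.108, so that the block is given where it changes a call.

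Genes with a symbol were all counted, but 1 of them is not reported here. Values are given for called genes and list members, and for the 2 highest and 2 lowest called probes without a name. The members, lists and markers were chosen with earlier results of these data known.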

Additional observations from a re-analysis of the deposited data

Results flagged for a closer look

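Olfr1307 had log2 ratios below the array median on all 3 cKO arrays and above it on all 3 WT arrays (0.46, 0.41 and 1.33), a difference of -0.86 that was not tested, because both colours were well above background on 1 WT array alone.

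The number of probes whose ratio differed between cKO and WT, 18, stands out because all of them were lower in cKO and because the count moved with the settings given below. The direction moved as well. With the replicate block 449 probes passed as higher in cKO and 310 as lower. With all 6 arrays required 14 were higher and 62 lower, and with normexp and loess 5 were higher and 104 lower. Centring on the spike-ins or the probes compared, or leaving out dye normalisation, gave only lower calls.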

How the results depend on the processing

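The count of 18522 probes called in cKO stayed between 14861 (without replicate 3) and 19402 (both colours on at least 1 array). It lay between 17115 and 18653 under the settings that changed background correction, dye normalisation, centring or variance. The fit of all 6 arrays gave 16790, and an unpaired fit of IP against supernatant signals gave 17062. With no filter on dim probes, 18499 of 60815 probes were called (30.4%, against 63.0%). These held only 13677 of the 18522 main calls. Requiring a 2-fold difference left 9621, 4726 above and 4895 below. With spike-in centring 45.7% of calls were above the median, against 49.8%. Of 27 called named genes and probes, 22 passed the adjusted p in each of the up to 12 alternatives run for single genes, which leave out the 2-fold requirement, the filters on fewer arrays and the centring on the trimmed mean or none. Pex11a, Gpi1, Gamt, Duox1 and Gsta4 did not. Near the median, the sign turned for E2f1 with normexp (-0.024) and for Olfr166 with normexp (0.022). For Acaa2 it turned with normexp (0.13), without dye normalisation (0.013), with both colours required on all 3 arrays (0.0032) and without replicate 1 (0.084). The sign of Acaa2 stayed without replicate 2 (-0.064) or 3 (-0.041).

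The median of the brightest minus the dimmest group, 0.050, was 0.21 with normexp, 0.015 with normexp and loess, 0.073 without dye normalisation, 0.13 with all 3 arrays required, 0.00069 with at least 1, 0.0015 with signal taken from the WT arrays, 0.011 with summed signal, and 0.032 to 0.083 without 1 replicate. The difference in spread was 1.43 with normexp, with or without loess. ASMM10SM1 minus ASMM10EP3A was -0.22 with normexp and -0.23 with loess added. The interquartile range of 1.38 was 0.65 and 0.64 under the same settings. The normexp settings add 50 to the signal of both colours, which by itself makes log2 ratios smaller in size, most for dim probes. How much of these changes comes from that offset was not tested.

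For cKO against WT, the 18 calls in limma's test became 109 with normexp and loess, 76 of 17797 probes with all 6 arrays required, 45 when centred on the probes compared (added after seeing the data), 759 with the replicate block, 6 with spike-in centring and 2 without dye normalisation. Normexp, the scan as a block and the shared scan alone gave 0, with 1833, 3542 and 4546 probes at an unadjusted p under 0.05. Leaving out 1 array gave 0 to 1 (2223 to 5340 unadjusted). The block changed no other call among the named genes than that of Pex11a. Dim probes with 1 colour near background have no ratio here.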

Other observations

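Control probes named for 2 glycolysis genes lay outside the detection rule. Those for Gapdh, well above background in both colours in 100% of their spots on the cKO arrays, had median log2 ratios of -1.18, -0.99 and -1.13 on cKO arrays 1, 2 and 3 and of -1.66, -1.02 and -1.56 on WT arrays 1, 2 and 3. Those for Pgk1, with 73.3% of spots, had -0.47, 0.28 and 0.20 in cKO and -0.12, 0.34 and 0.24 in WT. All arrays of both genotypes placed Gapdh below the array median, and Pgk1 changed side between arrays.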
